A study of Mus musculus with 6 samples.

Results

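Both Mettl3 knockout lines of this series, labelled KO1 and KO2, were compared with each other in mouse embryonic stem cells. The libraries were taken by their labels alone, 2 of KO1 and 2 of KO2, which makes 4 of the 6 in all; the other 2, from control cells, served as a reference level. All cells were of strain C57BL/6 and grew in medium with serum, LIF, the GSK3 inhibitor CHIR99021 and the MEK inhibitor PD0325901, so the lines and the control shared these agents. RNA polymerase II was pulled down from nuclease-digested chromatin, and the short RNAs it held were sequenced, which is the mNET-seq assay. The labels say neither how each knockout was made nor whether a line is 1 clone. Nor do they tell separate cultures from repeat runs among the replicates, so every p below reflects only the scatter among these libraries, which could be technical.

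RNA polymerase II often stops shortly after it starts a gene, held by the factors DSIF and NELF, and leaves the pause when the kinase P-TEFb acts. It may then go on through the gene body or end early, for instance through the Integrator complex. METTL3 is the catalytic subunit of the methyltransferase that writes m6A on RNA, working beside METTL14, WTAP and further adaptors. The labels do not define the deposited escaping index. From its name and its values it is read here as log2 of a ratio of polymerase signal along a transcript to the signal at its start, in which a higher index means relatively more signal downstream. Read so, it does not say how much RNA a gene makes or how much polymerase it carries. The sources used here give neither its windows nor its exact formula, so the differences below are differences in the index as deposited.

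The index was read for 12974 protein-coding genes, 1 transcript each, namely the protein-coding one with the longest genomic span. Its median over genes was 4.41 and 4.42 in the KO1 libraries and 4.24 and 4.23 in the KO2 libraries, with the control libraries at 4.79 and 4.80. The median over genes of the KO2 minus KO1 difference was -0.20, which is a change of -12.9% in the ratio, and 67.6% of genes were lower in KO2. Both KO2 libraries lay below both KO1 libraries, with SDs between replicate medians of 0.0084 in KO1 and 0.0089 in KO2. An exact two-sided permutation test of these 4 medians gave p = 0.333, the smallest that its 6 splits allow. Replicates correlated across genes at r = 0.975 in KO1 and 0.978 in KO2, and libraries of different lines at 0.964; the points share gene length and sequence and are not independent. All 10 naive stem cell markers looked up were in the table, as were 5 of 12 feeder fibroblast markers, 4 of 10 endoderm and trophoblast markers and 0 of 7 markers of 2-cell-like cells, though a ratio says nothing of their abundance.

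Below, the shift of -0.20 was taken off every difference. A difference of 0 thus means that a gene moved with the median gene, and a positive one means a higher log2 index in KO2 than in KO1 beyond it. No gene passed limma's test at an adjusted p of 0.05 (0.0% called), the smallest adjusted p being 0.195. At an unadjusted p under 0.05 limma held 2127 genes (16.4%), 1027 higher in KO2 (7.92%) and 1100 lower (8.48%). Without limma's variance trend no gene was called either, and those counts were 1017 and 1107. In 6663 genes (51.4%) both KO2 libraries lay on the same side of both KO1 libraries after the shift, 3284 of them higher (25.3%) and 3379 lower (26.0%). Such genes are said not to overlap, and the shares of 25.3% and 26.0% are the background for each list below. The difference had a SD over genes of 0.49, with 5th and 95th percentiles of -0.83 and 0.77, and the median standard error (SE) of a gene was 0.24. It exceeded 1 in 295 genes and lay below -1 in 363, and 626 of these 658 genes did not overlap. Every gene below is therefore given as a value that did not pass, with its moderated SE. Positions are on mm10. Unless stated, the place of a line against the controls is read from the deposited values. There the median over genes of the difference from control was -0.37 in KO1 and -0.58 in KO2.

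**Figure D1:**
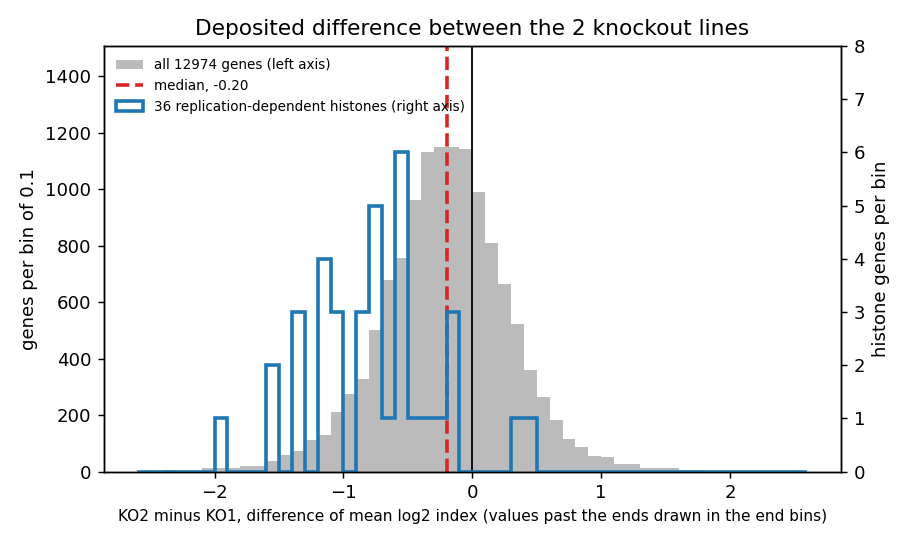
Histogram of the deposited KO2 minus KO1 difference of mean log2 index, before the shift is taken off, for all 12974 genes (grey, left axis) and for the 36 replication-dependent histones (blue outline, right axis). All genes center on -0.20, and most histones lie to the left of that line.

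The 12 genes higher in KO2 with the smallest p were of unlike kinds, with 2 proteins of the small ribosomal subunit among them. Invs, which encodes inversin, a protein of the primary cilium that acts in left-right patterning, was at 4.21 and 4.36 in KO1 and 5.86 and 5.83 in KO2, with control at 3.68 and 3.85. The Invs difference was 1.76 ± 0.17 (SE; limma unadjusted p = 6.19e-05, adjusted p = 0.195). Both KO2 libraries were above the other 4. The Invs transcript lies on chromosome 4, 48279802 to 48431954, over 17 exons, and overlaps Tex10 and Gm12435, so reads of those genes may enter its value. Cdk18, a cyclin-dependent kinase of the PCTAIRE group, was at 6.71 and 6.91 in KO1 and 8.81 and 8.45 in KO2, with control at 7.06 and 6.79. The Cdk18 difference was 2.02 ± 0.22 (chromosome 1, 132112237 to 132139684). Here too KO2 stood apart, with KO1 at the control level. Churc1, a zinc-binding protein known from neural development, was at 2.59 and 2.62 in KO1 and 4.13 and 4.37 in KO2, with control at 4.47 and 4.77. The Churc1 difference was 1.85 ± 0.19 (chromosome 12, 76765538 to 76783180). In Churc1 it was KO1 that stood apart, with KO2 just below the control level. Churc1 overlaps Fntb, a farnesyltransferase subunit, whose difference was 1.26 ± 0.19.

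The ribosomal protein genes Rps28 and Rps12 shared a layout, with KO1 below the controls and KO2 above them. Rps28 was at 2.83 and 2.76 in KO1 and 3.89 and 3.85 in KO2, with control at 3.51 and 3.57. The Rps28 difference was 1.27 ± 0.16. Rps12 was at 4.47 and 4.65 in KO1 and 5.65 and 5.60 in KO2, with control at 5.15 and 5.26. The Rps12 difference was 1.27 ± 0.17. Rps12 overlaps the small nucleolar RNA genes Snora33 and Snord100, and Rps28 overlaps Kank3. Mrps36, named as a mitochondrial ribosomal protein, was at 1.05 and 1.07 in KO1 and 1.99 and 2.12 in KO2, with control at 2.32 and 2.25. The Mrps36 difference was 1.20 ± 0.17. There KO1 stood apart from the other 4 libraries. Phb, the prohibitin of the inner mitochondrial membrane, was at 3.55 and 3.63 in KO1 and 4.56 and 4.69 in KO2, with control at 3.51 and 3.42. The Phb difference was 1.24 ± 0.16. There KO2 stood apart. Flot1, a flotillin that scaffolds membrane microdomains, was at 3.09 and 2.83 in KO1 and 4.11 and 4.32 in KO2, with control at 3.25 and 3.26. The Flot1 difference was 1.45 ± 0.19 (chromosome 17, 35823230 to 35832791). KO1 was again below and KO2 above the controls. Bak1, the pore-forming cell death protein of the BCL2 family, was at 5.09 and 5.11 in KO1 and 6.64 and 6.21 in KO2, with control at 6.11 and 5.81. The Bak1 difference was 1.52 ± 0.22 (chromosome 17, 27019810 to 27029009). The order was the same as in Flot1. Bak1 overlaps Ggnbp1.

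Zc3h10, a CCCH zinc finger protein, was at -0.05 and -0.16 in KO1 and 1.21 and 1.16 in KO2, with control at -0.15 and -0.09. The Zc3h10 difference was 1.48 ± 0.18. This was a gene with a low index throughout, and only its KO2 libraries had a ratio well above 1. Gm20509, a predicted gene that overlaps Khdc3 and Rsl24d1, was at 4.55 and 4.53 in KO1 and 5.50 and 5.68 in KO2, with control at 5.27 and 5.03. The Gm20509 difference was 1.25 ± 0.18. Reads of those genes may enter its value. Idi1, an isomerase of isoprenoid and sterol synthesis, was at 2.85 and 2.56 in KO1 and 3.89 and 4.22 in KO2, with control at 4.21 and 3.96. The Idi1 difference was 1.55 ± 0.22. With the mean over all its protein-coding transcripts the Idi1 difference was -0.105, in the opposite direction. Among the 5 widest gaps per direction were 4 further genes, 2 on each side. Nlrc3, a NOD-like receptor, was at 0.44 and 0.62 in KO1 and 2.18 and 2.35 in KO2, with control at 1.37 and 2.18. The Nlrc3 difference was 1.93 ± 0.30. Msl3l2, a relative of the chromatin protein MSL3, was at 2.87 and 3.06 in KO1 and 4.52 and 5.52 in KO2, with control at 3.45 and 4.12. The Msl3l2 difference was 2.25 ± 0.39. In both genes KO1 lay below both controls and KO2 at or above them, and the KO2 replicates of Msl3l2 were the farther apart of its groups. Msl3l2 overlaps Tbc1d32, so reads of that gene may enter its value.

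Among the 12 genes lower in KO2 with the smallest p, 3 were replication-dependent histones, described further on. Liph, a membrane-bound lipase that makes lysophosphatidic acid, was at 5.51 and 5.58 in KO1 and 3.56 and 3.47 in KO2, with control at 5.56 and 5.37. The Liph difference was -1.83 ± 0.17 (SE; limma unadjusted p = 4.97e-05, adjusted p = 0.195). It had the smallest p of all genes, with KO1 at the control level and KO2 below it, and lies on chromosome 16, 21953817 to 21995663, over 10 exons. Ehhadh, a bifunctional enzyme of peroxisomal fatty acid oxidation, was at 3.27 and 3.28 in KO1 and 1.68 and 1.30 in KO2, with control at 3.22 and 3.13. The Ehhadh difference was -1.58 ± 0.20 (chromosome 16, 21761287 to 21787807). Ehhadh lies on the same stretch of chromosome 16, overlaps Gm24898 and had the same order of groups. AU015836, a gene on chromosome X, was at 2.79 and 3.03 in KO1 and 0.27 and 0.73 in KO2, with control at 2.44 and 2.66. The AU015836 difference was -2.21 ± 0.23. Its 2 KO2 libraries lay below every other library. Smarca2, an ATPase of the SWI/SNF chromatin remodellers, was at 0.01 and 0.18 in KO1 and -1.73 and -1.70 in KO2, with control at 0.55 and 0.45. The Smarca2 difference was -1.61 ± 0.19. The Smarca2 transcript in the table is a short one of 7 exons that covers 17.7% of the annotated gene, so the value speaks for that start and not for the long form.

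In several of these genes KO1 stood above the controls and KO2 near or below them. Loxl2, a lysyl oxidase that crosslinks collagen, was at 6.83 and 7.15 in KO1 and 5.12 and 4.60 in KO2, with control at 5.48 and 5.45. The Loxl2 difference was -1.93 ± 0.24 (chromosome 14, 69609068 to 69695834). Fcgr3, an Fc receptor for IgG, was at 5.64 and 5.32 in KO1 and 3.49 and 3.15 in KO2, with control at 3.88 and 3.98. The Fcgr3 difference was -1.96 ± 0.21. Zfp951, a zinc finger gene, was at 5.14 and 5.27 in KO1 and 3.67 and 3.66 in KO2, with control at 3.90 and 4.14. The Zfp951 difference was -1.34 ± 0.17. KO1 was the line farther from control in these 3 genes, by 1.56 to 1.92 on the log2 scale once its own shift against control was taken off. Loxl2 overlaps Gm27177, Gm37513 and Mir6950, and Fcgr3 overlaps Mir6546. Mt3, a metallothionein that binds zinc and copper, was at 1.72 and 1.59 in KO1 and -0.50 and -0.21 in KO2, with control at 0.00 and 0.31. The Mt3 difference was -1.81 ± 0.22. Control replicate 1 of Mt3 holds a ratio of 1 plus the table's offset, as for a quotient of few reads. Kbtbd8, an adaptor of the CUL3 ubiquitin ligase, was at 2.33 and 2.17 in KO1 and 0.74 and 0.73 in KO2, with control at 1.82 and 1.94. The Kbtbd8 difference was -1.32 ± 0.18. KO1 was above and KO2 below the controls.

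The widest gaps on this side added Dab2ip and Nppb. Dab2ip, a GTPase-activating protein for Ras, was at 7.95 and 7.96 in KO1 and 5.94 and 5.95 in KO2, with control at 6.72 and 5.48. The Dab2ip difference was -1.81 ± 0.40. Nppb, the natriuretic peptide B gene, was at -1.11 and -0.77 in KO1 and -3.43 and -3.23 in KO2, with control at 0.32 and -1.11. The Nppb difference was -2.19 ± 0.48. The controls of each differed by more than 1 on the log2 scale. Of the 28 genes named by p or by gap, 2 had measured protein-coding transcripts from another start, over 500 bases away. For Zfp951 the other start had a difference of 0.19, and for Dab2ip the 6 others ran from -0.60 to 0.53, so the value of each gene was that of its longest transcript. In total 3 of the 7 other starts had the sign of their gene.

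**Figure D2:**
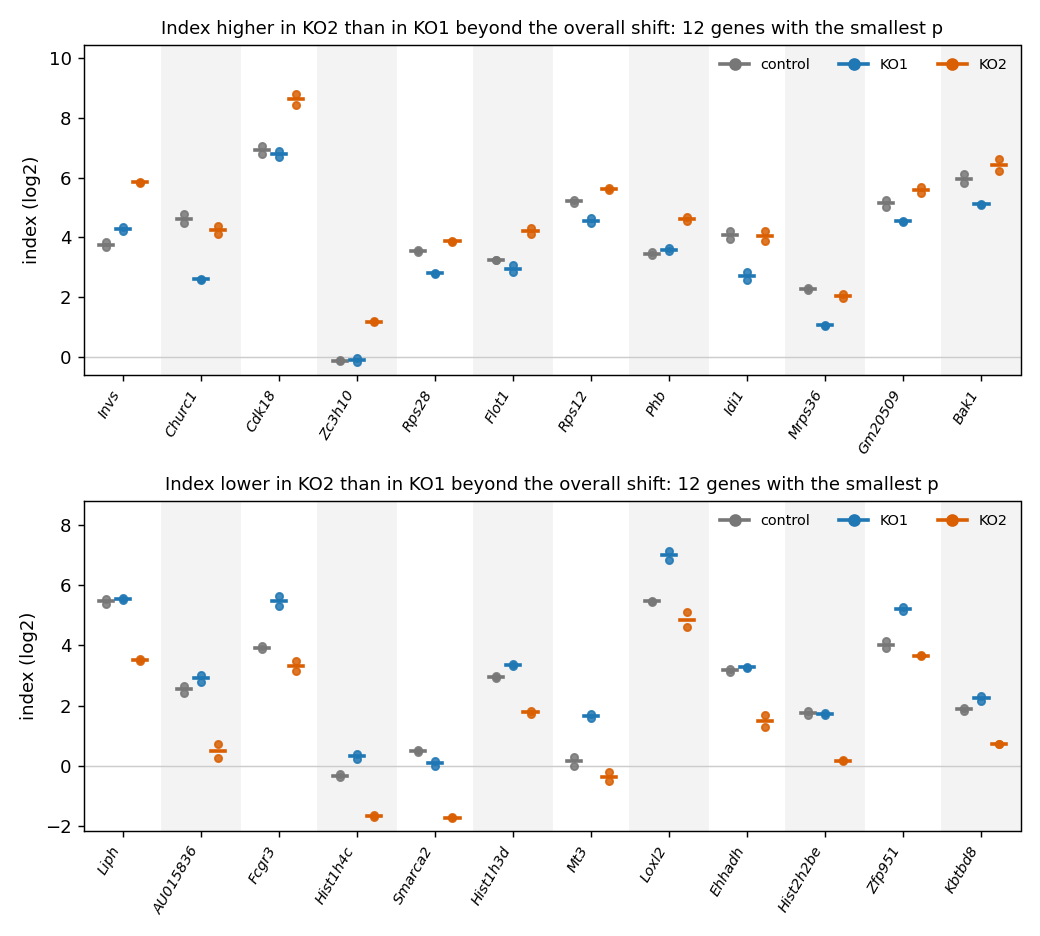
Log2 escaping index of the 12 genes per direction with the smallest p, 1 point per library with the group mean as a bar, in control (grey), KO1 (blue) and KO2 (orange). In the upper panel both KO2 points lie above both KO1 points, as for Invs at 5.86 and 5.83 against 4.21 and 4.36, and in the lower panel they lie below, as for Liph at 3.56 and 3.47 against 5.51 and 5.58.

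Mettl3, the knocked-out gene itself, was at 2.44 and 2.42 in KO1 and 2.10 and 2.30 in KO2, with control at 2.69 and 2.46. The Mettl3 difference was -0.03 ± 0.18 (limma adjusted p = 0.95; chromosome 14, 52294841 to 52305128; it overlaps Tox4). The lines overlapped, and without KO2 replicate 1 the value was 0.07, of the opposite sign. An index of this kind is no check on whether the METTL3 product is gone. Among 20 measured writers, readers and erasers of m6A, 5 higher and 7 lower in KO2 did not overlap, and the median difference was -0.11. Ythdf2, the cytoplasmic reader tied to RNA decay, was at 6.69 and 6.36 in KO1 and 5.69 and 5.57 in KO2, with control at 6.83 and 6.29. The Ythdf2 difference was -0.69 ± 0.25. Alkbh5, an m6A demethylase, was at 3.29 and 3.47 in KO1 and 3.56 and 3.74 in KO2, with control at 4.22 and 4.04. The Alkbh5 difference was 0.47 ± 0.18. The writer partners Mettl14 and Wtap, at differences of -0.19 ± 0.31 and -0.14 ± 0.26, overlapped between the lines.

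Replication-dependent histone genes had the largest share of members on 1 side, without overlap, of the lists measured. These short genes work in S phase, lie in clusters, mostly lack introns and give messages that end in a stem-loop in place of a poly(A) tail. Of 36 measured, 31 had a lower index in KO2 than in KO1 beyond the shift, and the median difference was -0.59, against 0.0 over all genes. Not overlapping were 27 with KO2 lower (75.0%, background 26.0%) and 2 with KO2 higher (5.56%, background 25.3%). At an unadjusted p under 0.05 there were 21 lower and 2 higher, and none passed after adjustment. Histone promoters often carry a TATA element and CCAAT boxes, so a stretch before the start is shown for the 4 genes lower in KO2 with the smallest p among those with a RefSeq entry and for the 2 that were higher without overlap, to set the letters beside the values. The sequences are from RefSeq on GRCm38.p6, 100 bases before the start, read 5′ to 3′ on the strand of the gene. Capitals mark TATAAA and CCAAT on either strand, so TTTATA and ATTGG are the same motifs on the other strand.
Hist1h4c (chr13:23698459-23698558, - strand): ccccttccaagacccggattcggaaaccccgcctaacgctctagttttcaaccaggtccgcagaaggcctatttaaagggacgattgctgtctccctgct
Hist1h3d (chr13:23575663-23575762, + strand): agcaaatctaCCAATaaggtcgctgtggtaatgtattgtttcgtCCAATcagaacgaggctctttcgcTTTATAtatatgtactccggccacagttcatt
Hist1h2bp (chr13:21787388-21787487, + strand): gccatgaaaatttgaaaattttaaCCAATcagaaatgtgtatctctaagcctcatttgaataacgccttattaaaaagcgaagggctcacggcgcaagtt
Hist1h4d (chr13:23581468-23581567, + strand): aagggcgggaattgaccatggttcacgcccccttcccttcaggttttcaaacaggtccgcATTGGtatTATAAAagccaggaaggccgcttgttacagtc
Hist2h3c2 (chr3:96239128-96239227, - strand): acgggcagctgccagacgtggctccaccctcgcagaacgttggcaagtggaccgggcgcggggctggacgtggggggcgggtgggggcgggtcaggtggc
Hist1h2be (chr13:23621095-23621194, - strand): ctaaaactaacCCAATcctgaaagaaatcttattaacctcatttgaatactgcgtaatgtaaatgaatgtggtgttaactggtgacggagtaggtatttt

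A promoter entry was found for 32 of the 36 genes. TATAAA, on either strand from 250 bases before to 50 after the start, was in 16 of them (50.0%), against 6.42% of the 8399 measured genes with an entry. CCAAT was in 29 (90.6%), against 40.8%. TTCNNGAA, letters known from heat shock elements, was in 2 (6.25%), against 6.27%. Each motif was searched by itself, and TATAAA and CCAAT can share at most 1 base. These matches describe letters only, and genes on both sides of 0 are counted in them.

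By class, all H1, H2A and H4 genes were lower in KO2 and did not overlap. The median difference was -0.89 for the 7 H4 genes, -0.59 for the 7 H2A genes and -0.58 for the 5 H1 linker genes. Of 9 H2B genes 8 lay below 0, 6 of them without overlap, and the median was -0.70. The 8 H3 genes were divided, 4 below and 4 above 0, with a median of -0.04, or 0.11 with the shift removed as a trend on gene length. With 1 added to each ratio before the log, the medians of H4, H2A, H1 and H2B were -0.23, 0.02, -0.37 and -0.44, so H2A lost its sign; 5 of its 7 members have ratios below 1 in all 4 knockout libraries, where an added 1 weighs most. Genes of these clusters have near-identical copies, so the value of a single member is uncertain where reads could be shared, and 10 of the 36 overlap another annotated gene. These 10 include all 7 H2A genes, with 1 each of H1, H2B and H3 and 0 of H4. Reads of other genes may therefore enter the values of the whole H2A class.

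Hist1h4c, a single-exon H4 gene, was at 0.24 and 0.39 in KO1 and -1.68 and -1.62 in KO2, with control at -0.28 and -0.38. The Hist1h4c difference was -1.77 ± 0.19 (SE; limma unadjusted p = 1.29e-04, adjusted p = 0.195; chromosome 13, 23697635 to 23698454). KO1 lay above both controls and KO2 below both. Hist1h3d, the H3 gene with the widest difference, was at 3.32 and 3.38 in KO1 and 1.73 and 1.82 in KO2, with control at 2.91 and 2.99. The Hist1h3d difference was -1.37 ± 0.16. The order of the groups was the same. Hist2h2be, an H2B gene on chromosome 3, was at 1.75 and 1.70 in KO1 and 0.15 and 0.19 in KO2, with control at 1.70 and 1.83. The Hist2h2be difference was -1.36 ± 0.17. Here KO1 was at the control level. The H2B genes Hist1h2bp and Hist1h2bc followed, at differences of -1.17 ± 0.20 and -1.15 ± 0.17. Hist1h4d, another H4 gene, was at -0.57 and -0.53 in KO1 and -1.96 and -1.79 in KO2, with control at -1.20 and -1.17. The Hist1h4d difference was -1.13 ± 0.20. Hist4h4, the lone member on chromosome 6, was at 0.71 and 0.88 in KO1 and -0.43 and -0.36 in KO2, with control at 0.86 and 0.92. The Hist4h4 difference was -0.99 ± 0.18. In both of these KO2 was below the controls, and KO1 was above them in Hist1h4d alone. The linker genes Hist1h1c and Hist1h1e were at differences of -0.59 ± 0.17 and -0.58 ± 0.17. Hist1h1t, the testis H1, was less certain, with control replicates at 1.14 and -0.78 and a difference of -0.91 ± 0.68.

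Higher in KO2 without overlap were 2 histone genes, Hist1h2be and Hist2h3c2. Hist1h2be, an H2B gene, was at 5.31 and 5.31 in KO1 and 5.60 and 6.00 in KO2, with control at 5.63 and 5.76. The Hist1h2be difference was 0.69 ± 0.20. Its longest transcript spans 37455 bases and runs over Hist1h1e, so its index is not that of a short histone gene. Of the 9 H2B genes 4 had a single exon, so other members of the class also have models of more than 1 exon. Hist2h3c2, an H3 gene on chromosome 3, was at 0.84 and 1.08 in KO1 and 1.27 and 1.36 in KO2, with control at 1.46 and 1.56. The Hist2h3c2 difference was 0.55 ± 0.19. Both its KO2 libraries lay above both KO1 libraries in the deposited values too. The cluster on chromosome 13 (21722044 to 23764406) held 27 members with a median of -0.58, 20 of them lower without overlap, and the 7 members on chromosome 3 had -0.59, with 5. The lone members on chromosomes 11 and 6 were at -0.69 and -0.99. Relative to each line's own shift against the same 2 control libraries, the median of the list was 0.47 in KO1 and -0.02 in KO2. Short or intronless genes outside the list lay nearer the background. The 332 other single-exon genes had a median of -0.08, with 28.3% lower without overlap, and the 1633 other genes under 5 kb had -0.02, with 26.2%. Over the alternatives with the shift taken off, the median of the list lay between -0.69 and -0.14, the last with 1 added to the ratio.

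**Figure D3:**
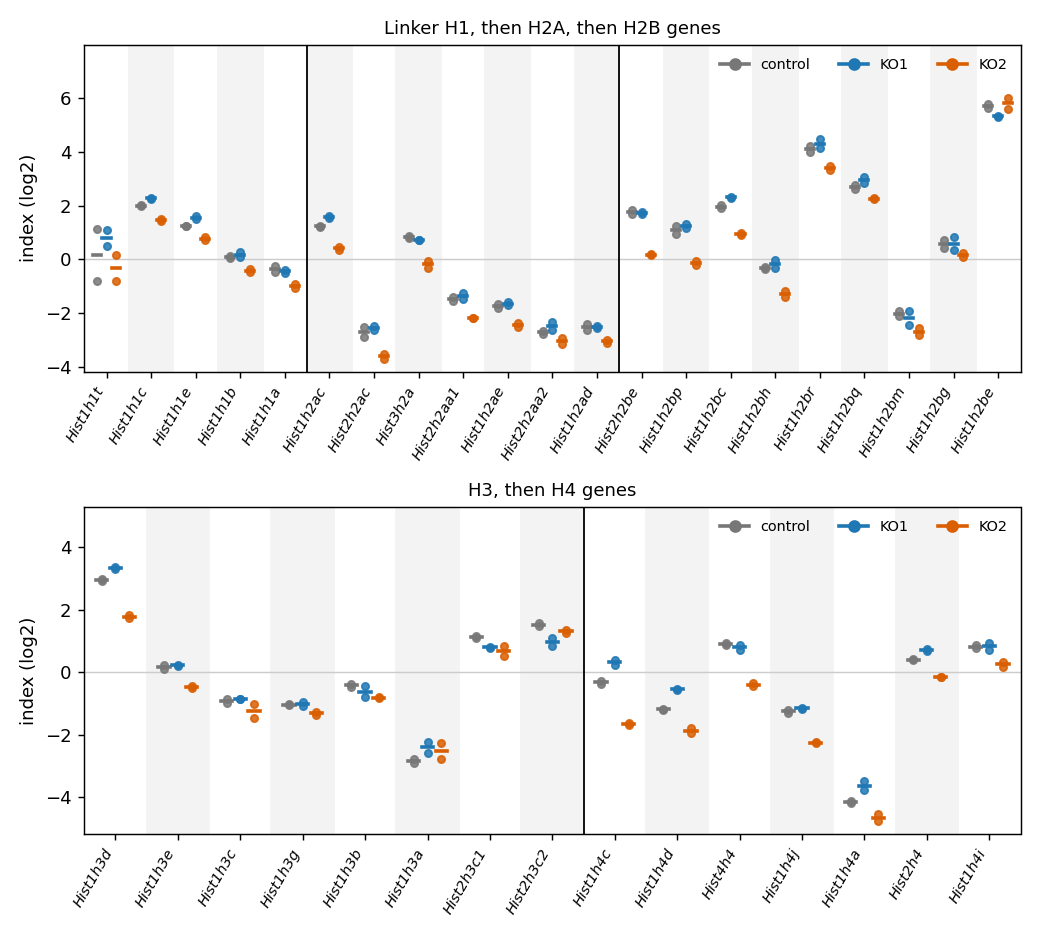
Log2 escaping index of the 36 replication-dependent histone genes by class, 1 point per library with the group mean as a bar, in control (grey), KO1 (blue) and KO2 (orange). The KO2 points lie below the KO1 points in every H1, H2A and H4 gene, as for Hist1h4c at -1.68 and -1.62 against 0.24 and 0.39, and lie above them in Hist2h3c2.

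Replacement histones, made throughout the cell cycle and mostly from genes with introns and poly(A) tails, were divided; this list was added after the values of the others were seen. Of 11 measured, 4 were higher and 6 lower without overlap, with a median of -0.18. H1f0, a linker histone of non-dividing cells, was at 1.83 and 1.91 in KO1 and 0.78 and 0.80 in KO2, with control at 1.85 and 1.75. The H1f0 difference was -0.88 ± 0.17. KO2 alone was below the controls. H3f3b, which encodes H3.3, and H2afy2, a macroH2A gene, were at differences of -0.47 ± 0.18 and -0.75 ± 0.24. Cenpa, the centromeric H3 variant, was on the other side, at 0.65 ± 0.21, and H3f3a, the second H3.3 gene, overlapped at 0.10 ± 0.24.

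Tubulins form microtubules from alpha and beta subunits, with gamma, delta and epsilon relatives at centrosomes. They had the lowest median of the lists, -0.65 over 16 genes, with 9 lower in KO2 without overlap (56.2%) and 1 higher (6.25%). Tuba1b, a main alpha subunit of dividing cells, was at 5.18 and 5.00 in KO1 and 4.02 and 4.06 in KO2, with control at 4.88 and 4.38. The Tuba1b difference was -0.85 ± 0.22. Tubb5, a main beta subunit, was at 5.17 and 4.83 in KO1 and 4.05 and 4.27 in KO2, with control at 4.66 and 4.91. The Tubb5 difference was -0.64 ± 0.21. Tubb4b, another beta gene, was at 2.75 and 2.86 in KO1 and 1.73 and 1.90 in KO2, with control at 2.40 and 2.61. The Tubb4b difference was -0.79 ± 0.18. In all 3 the KO2 libraries lay below both controls in the deposited values. Beyond each line's own shift against control, Tuba1b was at 0.83 in KO1 and -0.0045 in KO2. Tubb5 was at 0.58 and -0.05 by the same measure, and Tubb4b at 0.67 and -0.11. KO1 was thus the line farther from the median gene in them. Tubb2b, a beta gene of the nervous system, was at 2.76 and 2.82 in KO1 and 1.85 and 2.01 in KO2, with control at 1.90 and 1.92. The Tubb2b difference was -0.66 ± 0.17. There KO1 lay above the controls and KO2 near their level. Tuba1a was at a difference of -0.29 ± 0.17, with both lines above the controls, while Tuba1c and Tuba4a, at -0.19 and -0.14, overlapped between the lines. Tubg1, the gamma tubulin that nucleates microtubules, was at 1.79 and 1.99 in KO1 and 2.14 and 2.32 in KO2, with control at 3.31 and 3.37. The Tubg1 difference was 0.54 ± 0.18. It was the 1 member higher without overlap, with both lines below the controls. Of the 16 genes 8 overlap another annotated gene; over the other 8 the median was -0.42, and over all alternatives with the shift taken off it ran from -0.67 to -0.42. Tubulin copies are alike in sequence, so single members are uncertain here too.

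The Tmed genes encode the p24 cargo receptors, which carry proteins between the endoplasmic reticulum and the Golgi. Of the 143 families of 10 or more genes that share a symbol stem, Tmed had the highest median difference, 0.67, with 9 of 10 members above 0, 7 higher without overlap (70.0%) and 0 lower. Tmed9 was at 5.27 and 4.98 in KO1 and 6.34 and 5.95 in KO2, with control at 4.74 and 5.08. The Tmed9 difference was 1.22 ± 0.23 (limma adjusted p = 0.195). KO2 alone was above the controls. Tmed4 was at 3.29 and 3.10 in KO1 and 3.67 and 3.81 in KO2, with control at 4.08 and 4.21. The Tmed4 difference was 0.74 ± 0.17. Tmed5 was at 4.15 and 4.29 in KO1 and 4.57 and 5.01 in KO2, with control at 5.64 and 5.46. The Tmed5 difference was 0.77 ± 0.21. In these 2 genes both lines lay below the controls in the deposited values, KO1 farther. Beyond each line's own shift against control, Tmed4 was at -0.58 in KO1 and 0.17 in KO2, and Tmed5 at -0.96 and -0.18. Tmed3 and Tmed8 were at differences of 0.78 ± 0.25 and 0.66 ± 0.21, and Tmed10 and Tmed2, at 0.32 and 0.21, overlapped between the lines. Tmed6 was the member below 0, at -0.63 ± 0.34. With the mean over all transcripts of a gene the median of the family was 0.28, and with any 1 library left out it lay between 0.53 and 0.67. The COPI and COPII coats, which form the vesicles these receptors travel in, had a median of -0.10 over 19 genes (3 higher and 7 lower without overlap), a list added after the Tmed values were seen.

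**Figure D4:**
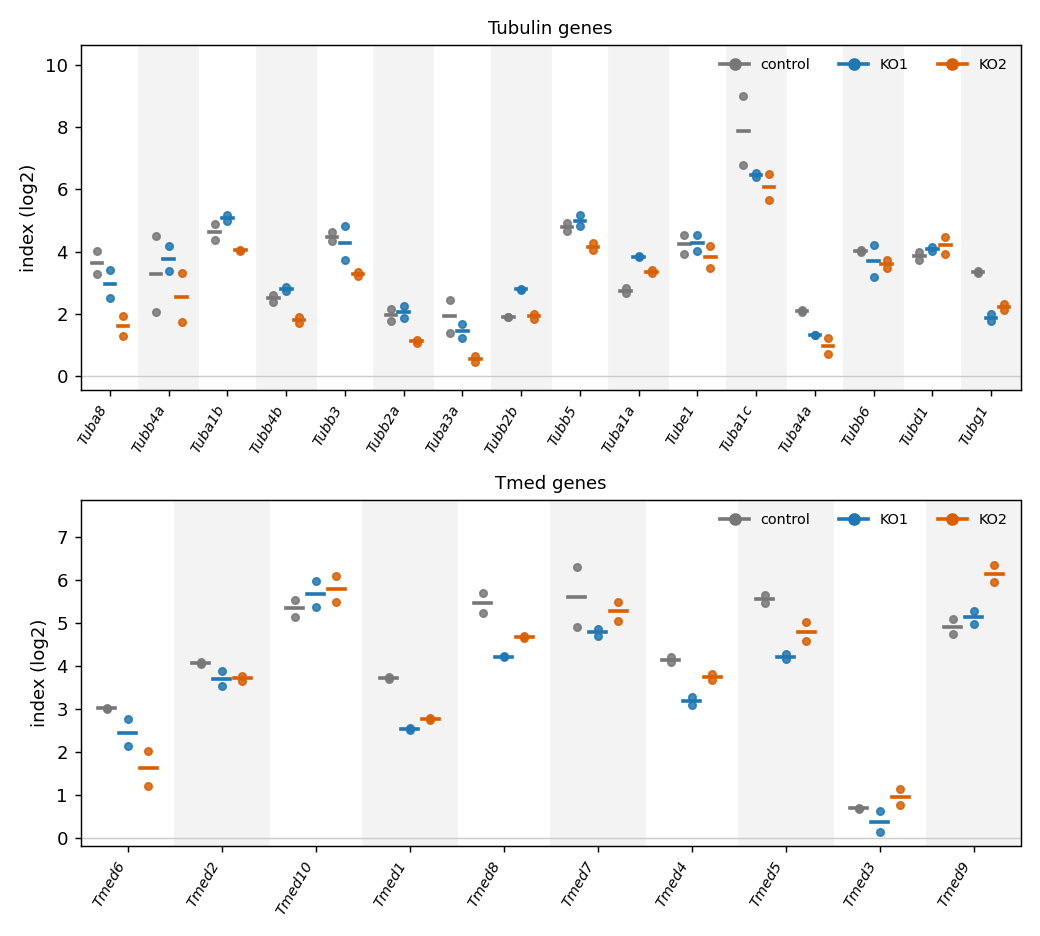
Log2 escaping index of the 16 tubulin genes (upper panel) and the 10 Tmed genes (lower panel), 1 point per library with the group mean as a bar, in control (grey), KO1 (blue) and KO2 (orange). KO2 lies below KO1 in tubulins such as Tuba1b, at 4.02 and 4.06 against 5.18 and 5.00, and above it in Tmed9, at 6.34 and 5.95 against 5.27 and 4.98.

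Immediate early genes are switched on within minutes of a growth or stress signal, largely by release of paused polymerase. Their median difference was -0.37 over 22 genes, with 13 lower in KO2 without overlap (59.1%) and 3 higher (13.6%). Jund, a subunit of the AP-1 factor, was at -0.94 and -0.58 in KO1 and -1.97 and -2.03 in KO2, with control at -1.07 and -0.78. The Jund difference was -1.04 ± 0.24. Jun, its relative, was at 1.02 and 0.70 in KO1 and -0.17 and -0.26 in KO2, with control at 0.72 and 0.89. The Jun difference was -0.88 ± 0.21. Neither gene's lines overlapped. Dusp1 and Dusp6, phosphatases that switch off MAP kinases, were at differences of -0.78 ± 0.20 and -0.79 ± 0.28. Egr1, a zinc finger factor, was at 5.06 and 5.73 in KO1 and 4.49 and 3.92 in KO2, with control at 3.57 and 4.29. The Egr1 difference was -0.99 ± 0.37. Both KO1 libraries of Egr1 lay above both controls. Fos, another AP-1 subunit, was at -2.14 and -2.06 in KO1 and -2.71 and -2.96 in KO2, with control at -0.91 and -1.07. The Fos difference was -0.54 ± 0.22. Both lines were below the controls, KO2 farther. On the other side Fosl1 was at a difference of 1.17 ± 0.34 and Maff at 0.58 ± 0.30. With 1 added to the ratio the median of the list was -0.05, and without genes of a mean index below 0 it was -0.22.

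Among 21 heat shock chaperones and regulators, which fold proteins and respond to stress, the median difference was -0.21, with 12 lower in KO2 without overlap (57.1%) and 3 higher (14.3%). Bag3, a co-chaperone that links HSP70 to autophagy, was at 3.27 and 3.40 in KO1 and 1.91 and 1.96 in KO2, with control at 3.52 and 3.50. The Bag3 difference was -1.20 ± 0.16. KO2 alone lay well below the controls. The inducible HSP70 genes Hspa1a and Hspa1b were at differences of -0.98 ± 0.27 and -0.87 ± 0.26, and Hsp90ab1, a cytosolic HSP90, at -0.70 ± 0.17. Hspa1a was at 0.0023 and 0.022 in KO2, so both ratios were close to 1. Hspa1a and Hspa1b lie near each other on chromosome 17, and the sharing of reads between them was not tested. Hspd1 and Hspe1, the mitochondrial HSP60 and HSP10 genes that share a promoter and overlap, were at -0.72 ± 0.17 and -1.06 ± 0.28. Hspa8, the constitutive HSP70 gene and a host of small nucleolar RNAs, was at 9.79 and 10.08 in KO1 and 10.34 and 11.63 in KO2, with control at 9.38 and 10.15. The Hspa8 difference was 1.25 ± 0.51. Its KO2 replicates were more than 1 apart, and the regulator Hsf1 was at 0.14 ± 0.20. Without members that overlap another gene the median of the 13 left was -0.02; without KO1 replicate 1 it was -0.33, and without KO2 replicate 2 it was -0.35. Of the 13 members with a promoter entry 2 held TTCNNGAA (15.4%).

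Cadherins and protocadherins, adhesion proteins of the cell surface, had a median of -0.34 over 33 genes, with 14 lower without overlap (42.4%) and 5 higher (15.2%). Cdh1, the E-cadherin that holds stem cell colonies together, was at 6.32 and 6.15 in KO1 and 5.62 and 5.53 in KO2, with control at 6.53 and 6.46. The Cdh1 difference was -0.46 ± 0.17. Cdh6 and the X-linked Pcdh11x were at differences of -0.59 ± 0.20 and -0.99 ± 0.24, and Cdh24, on the other side, at 0.71 ± 0.22. The clustered gamma protocadherins share their last exons and overlap each other, so they are not separate measurements. In all, 29 of the 33 genes overlap another gene, and the median over the other 4 was -0.50; with the mean over transcripts the median of the list was -0.11.

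On the other side, the 15 measured genes of the ciliary transition zone, the gate at the base of the primary cilium, had the highest median of the lists, 0.36, with 7 higher in KO2 without overlap (46.7%) and 1 lower (6.67%). B9d2 was at 1.93 and 2.77 in KO1 and 3.32 and 2.95 in KO2, with control at 3.08 and 3.44. The B9d2 difference was 0.98 ± 0.33. By the transcript of longest spliced length, however, the B9d2 difference was -0.10. Mks1, a gene of Meckel syndrome, was at 4.15 and 3.68 in KO1 and 4.37 and 4.49 in KO2, with control at 5.51 and 5.21. The Mks1 difference was 0.72 ± 0.23. Both lines lay below the controls, KO1 farther. Tctn3, the exception, was at 5.39 and 5.44 in KO1 and 4.77 and 4.46 in KO2, with control at 6.55 and 6.68. The Tctn3 difference was -0.60 ± 0.18. There KO2 was the farther from control. Relative to each line's own shift against the same controls, the list had a median of -0.54 in KO1 and -0.25 in KO2, and without KO2 replicate 1 the median between the lines was 0.20.

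The 19 genes of H3K9 methylation and KAP1 silencing, which keep heterochromatin and retroviruses shut, had a median of 0.26, with 9 higher without overlap (47.4%) and 4 lower (21.1%). Mphosph8, a subunit of the HUSH silencing complex, was at 4.41 and 4.76 in KO1 and 5.24 and 5.18 in KO2, with control at 5.08 and 5.13. The Mphosph8 difference was 0.82 ± 0.19. Its partner Pphln1 was at a difference of 0.70 ± 0.23, while Fam208a, also of this list, overlapped between the lines at -0.11 ± 0.18. Ehmt2, the methyltransferase G9a, was at 5.85 and 5.65 in KO1 and 6.27 and 6.47 in KO2, with control at 7.19 and 6.50. The Ehmt2 difference was 0.82 ± 0.27. Ehmt1, the enzyme it pairs with, was on the other side at -0.23 ± 0.21. The HP1 genes Cbx5 and Cbx3 were at 0.44 ± 0.16 and 0.53 ± 0.21, and Trim28, the KAP1 gene, overlapped at 0.27 ± 0.27. The median was 0.53 over the 7 members that overlap no other gene, 0.14 with the mean over transcripts, 0.16 without KO1 replicate 2 and 0.17 without KO2 replicate 2.

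Homologous recombination genes, which repair broken DNA from the sister copy, had a median of 0.20 over 20 genes, with 7 higher without overlap (35.0%) and 4 lower (20.0%). Rad52, which anneals DNA strands, was at 4.46 and 4.35 in KO1 and 4.91 and 4.78 in KO2, with control at 5.06 and 4.80. The Rad52 difference was 0.64 ± 0.18. KO1 lay below both controls. Brca1, Bard1, Blm and Mre11a lay below 0, at -0.32, -0.28, -0.21 and -0.38. Over the 6 members that overlap no other gene the median was 0.13. Of 75 mitochondrial ribosomal protein genes 32 were higher in KO2 without overlap (42.7%) and 10 lower (13.3%), with a median of 0.13. Mrpl43, of the large subunit, was at 1.40 and 1.11 in KO1 and 2.30 and 2.27 in KO2, with control at 2.44 and 2.69. The Mrpl43 difference was 1.23 ± 0.20. Mrpl41, an exception in the same subunit, was at -1.28 and -1.40 in KO1 and -2.89 and -3.25 in KO2, with control at -1.53 and -1.48. The Mrpl41 difference was -1.53 ± 0.23. Without KO2 replicate 1 the median of the mitochondrial list was 0.22 and without KO2 replicate 2 it was 0.08; with the shift left in it was -0.07.

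Cytosolic ribosomal proteins had a median of -0.10 over 86 genes, with 38 lower without overlap (44.2%) and 19 higher (22.1%), so Rps28 and Rps12 were on the side of the fewer. Rps15a, of the small subunit, was at 4.36 and 4.43 in KO1 and 3.37 and 3.34 in KO2, with control at 4.01 and 4.14. The Rps15a difference was -0.84 ± 0.16. Rps3a1, another small subunit gene, was at 3.67 and 3.69 in KO1 and 4.44 and 4.52 in KO2, with control at 4.92 and 4.90. The Rps3a1 difference was 1.00 ± 0.16. Many of these genes host small nucleolar RNAs or have processed copies, and 47 of the 86 overlap another gene. Replication licensing and origin firing genes had a median of -0.10 over 33, with 14 lower without overlap (42.4%) and 3 higher (9.09%). The origin recognition subunits Orc6, Orc5 and Orc2 were at differences of -0.69 ± 0.16, -0.65 ± 0.21 and -0.56 ± 0.18, and Pold1, the catalytic subunit of polymerase delta, was at 0.74 ± 0.16.

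The factors of pausing and elongation lay on both sides, with a median of 0.04 over 33 genes and 11 higher and 8 lower without overlap. Paf1, which names the PAF elongation complex, was at 1.89 and 1.77 in KO1 and 0.96 and 0.98 in KO2, with control at 1.32 and 1.39. The Paf1 difference was -0.66 ± 0.17. Its partners Ctr9 and Cdc73 were at differences of -0.57 ± 0.29 and -0.34 ± 0.16. Nelfcd, a subunit of the pausing factor NELF, was at 5.07 and 4.77 in KO1 and 6.06 and 5.39 in KO2, with control at 5.43 and 6.09. The Nelfcd difference was 1.01 ± 0.33. Nelfa was at 0.39 ± 0.23, the elongation factor Ell at 0.54 ± 0.17 and Ccnt1, a cyclin of P-TEFb, at 0.45 ± 0.16. Ell2 was at -0.50 ± 0.16 by its longest span but at 0.18 by spliced length. The 14 Integrator subunits had a median of -0.13 (2 higher and 7 lower), with Ints6 at -0.64 ± 0.18 and Ints1 at 1.17 ± 0.20. The 20 genes of the nuclear exosome and its adaptors had 0.10 (10 higher and 6 lower), with Exosc5 at 0.57 ± 0.16.

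The 24 naive pluripotency genes had a median of 0.0051, with 8 higher and 9 lower without overlap. Pou5f1, Nanog and Sox2, at differences of 0.03, 0.10 and -0.11, overlapped between the lines. Nr0b1, an orphan nuclear receptor, was at 2.99 and 2.61 in KO1 and 1.77 and 1.61 in KO2, with control at 2.49 and 3.35. The Nr0b1 difference was -0.92 ± 0.32. Utf1, a chromatin factor of stem cells, was at 1.40 and 0.90 in KO1 and 0.13 and -0.10 in KO2, with control at 0.13 and 1.15. The Utf1 difference was -0.94 ± 0.38. Of 12 primed and early lineage genes 2 higher and 4 lower did not overlap (median -0.12). Gsc, a homeobox gene of the organizer, was at 0.86 and 0.74 in KO1 and -0.34 and 0.00 in KO2, with control at 1.35 and 1.52. The Gsc difference was -0.77 ± 0.21. KO2 replicate 2 of Gsc holds a ratio of 1 plus the offset, as for a quotient of few reads. Lefty2, an inhibitor of Nodal, was at 5.15 and 4.75 in KO1 and 5.78 and 5.50 in KO2, with control at 5.65 and 5.22. The Lefty2 difference was 0.89 ± 0.25. Gsc was lower than control in both lines, KO2 farther, and Lefty2 was near control in KO2. Of the 4 listed endoderm and trophoblast markers, Gata3 was at 1.03 ± 0.31 and Eomes at 0.98 ± 0.31, Hnf4a at 0.79 and Tfap2c at -0.05. The 5 measured feeder markers had a median of 0.275, with 2 higher and 1 lower without overlap. Thy1 was at 0.52 ± 0.19, Twist1 at 0.275 ± 0.27 and Fbln1 at -0.57 ± 0.23. Twist1, whose value is the median, was at 0.0025 and -0.32 in KO1 and -0.17 and 0.0018 in KO2. Its lines overlapped in the deposited values and were apart by 0.03 only after the shift. KO1 replicate 1 and KO2 replicate 2 of Twist1 hold a ratio of 1 plus the offset, as for a quotient of few reads. Vim, at 0.29 ± 0.37, and Col1a1, at -0.46 ± 0.44, overlapped between the lines. The part of other cells in these values was not tested.

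Among 24 p53 targets the median was 0.06 (9 higher and 8 lower without overlap). Cdkn1a, the p21 inhibitor of cyclin-dependent kinases, was at 6.16 and 6.43 in KO1 and 7.13 and 7.70 in KO2, with control at 7.55 and 7.01. The Cdkn1a difference was 1.32 ± 0.30. Pmaip1, the cell death gene Noxa, was at 2.30 and 2.03 in KO1 and 1.03 and 0.86 in KO2, with control at 1.97 and 1.71. The Pmaip1 difference was -1.02 ± 0.21. The pair thus stood on opposite sides of the median gene. Signalling lists were likewise divided. In the FGF and ERK list (median 0.07, 7 higher and 5 lower) the ETS factors Etv4 and Etv5, which act downstream of FGF, were on opposite sides. Etv4 was at 4.01 and 3.96 in KO1 and 4.65 and 5.16 in KO2, with control at 4.74 and 4.82. The Etv4 difference was 1.12 ± 0.22. Etv5 was at 7.28 and 7.61 in KO1 and 6.06 and 6.14 in KO2, with control at 7.19 and 6.66. The Etv5 difference was -1.15 ± 0.25. Neither gene's lines overlapped. In the TGF-beta, BMP and Nodal list (median 0.13) the BMP target Id2 was at -1.49 ± 0.27 and the Nodal co-receptor Tdgf1 at 0.84 ± 0.19. In the Wnt list (median 0.02) Rnf43, a ubiquitin ligase that removes Wnt receptors, was at 1.40 ± 0.29.

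Chromatin lists had medians near 0: 0.01 for 26 Polycomb subunits (9 higher and 6 lower without overlap) and 0.04 for 18 MLL and SETD1 subunits (6 higher and 2 lower). Phc2, of the Polycomb complex PRC1, was at 4.04 and 4.05 in KO1 and 5.17 and 5.46 in KO2, with control at 6.17 and 5.77. The Phc2 difference was 1.46 ± 0.21. Both lines were below the controls, KO1 farther. Ash2l, a core MLL subunit, was at 0.79 ± 0.17, and Men1 at -0.52 ± 0.18. Men1 reversed, to 0.19 by spliced length and 0.050 with the mean over transcripts. The 22 imprinted genes had a median of -0.11. Cdkn1c, an imprinted inhibitor of the cell cycle, was at -1.96 and -1.72 in KO1 and -3.09 and -3.50 in KO2, with control at -1.55 and -1.39. The Cdkn1c difference was -1.25 ± 0.25. With the mean over its transcripts Cdkn1c was at 0.029.

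Metabolic lists held members on both sides: of 83 oxidative phosphorylation subunits 26 were higher and 26 lower without overlap (median 0.04). Ndufb11, of respiratory complex I, was at 4.01 and 3.69 in KO1 and 2.19 and 1.50 in KO2, with control at 3.02 and 2.90. The Ndufb11 difference was -1.81 ± 0.28. The 14 genes of the Ndufa stem, most of them of that complex, had a median of 0.32, with 9 higher and 2 lower; Ndufa4l2, a hypoxia-regulated relative of NDUFA4, was at 1.76 ± 0.40 and Ndufa9 at -0.71 ± 0.17. Sterol synthesis genes had a median of 0.13 (9 higher and 3 lower) over 22 genes, Idi1 among them. The 47 genes of the Psm stems, which are proteasome subunits and activators but also the assembly chaperones Psmg1 to Psmg4, the inhibitor Psmf1 and the meiotic recombination factor Psmc3ip, had a median of 0.13 (17 higher and 10 lower), with Psmb6, a catalytic subunit, at -0.89 ± 0.18 and Psmc6, an ATPase, at 0.84 ± 0.18. Glycolytic genes had -0.03 (8 higher and 9 lower), with the glucose transporter Slc2a3 at -0.71 ± 0.22, or 0.38 by spliced length. The 21 ATF4 and amino acid stress genes had -0.14 (3 higher and 6 lower), with Chac1, which breaks down glutathione, at -1.04 ± 0.23.

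The 366 Zfp genes had a median of 0.06, with 118 higher (32.2%) and 78 lower (21.3%) without overlap, and the 230 solute carriers 0.04, with 56 (24.3%) and 59 (25.7%). The 65 genes of the Eif and Eef stems had a median of -0.05, with 14 higher (21.5%) and 24 lower (36.9%) without overlap. Besides translation factors they take in the kinases Eif2ak1 to Eif2ak4 and Eef2k, the methyltransferases Eef1akmt1 to Eef1akmt4 and Eef2kmt, and the binding proteins Eif4ebp1 to Eif4ebp3. DDX and DHX helicases at -0.01 (16 higher and 14 lower of 49). The 38 Kif genes, with the partner proteins Kif1bp and Kifap3 among them, were at -0.02, with 10 higher (26.3%) and 5 lower (13.2%). Genes of the Usp stem were at -0.06, interferon and antiviral genes at 0.10, genes of the collagen stems at -0.08, Hox genes at -0.11, mitotic kinases and cyclins at 0.0001, and DNA methyltransferases and TET enzymes at 0.0058. None of the 13 genes listed for 2-cell-like cells was measured. Of the 41 lists with a measured member 9 had a median beyond 0.2 in either direction. By symbol stem, the highest medians after Tmed were those of Parp (0.41), Prr (0.35), Ndufa and Psmb (0.30), and the lowest besides the histones those of Bcl (-0.34), Hspa (-0.30), Pcdhga (-0.28) and Chst (-0.27). A shared stem is no shared function, and the Parp stem had 6 members above 0 and 5 below. Parp9, a partner of a ubiquitin ligase of the interferon response, was at 3.35 and 3.20 in KO1 and 1.79 and 1.61 in KO2, with control at 3.72 and 3.32. The Parp9 difference was -1.38 ± 0.21. Hspa13, an HSP70 relative of the endoplasmic reticulum, was at 4.16 and 3.99 in KO1 and 2.33 and 2.24 in KO2, with control at 2.77 and 3.48. The Hspa13 difference was -1.59 ± 0.27. In Parp9 KO2 stood apart from control, and in Hspa13 KO1 lay above and KO2 below the controls.

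**Figure D5:**
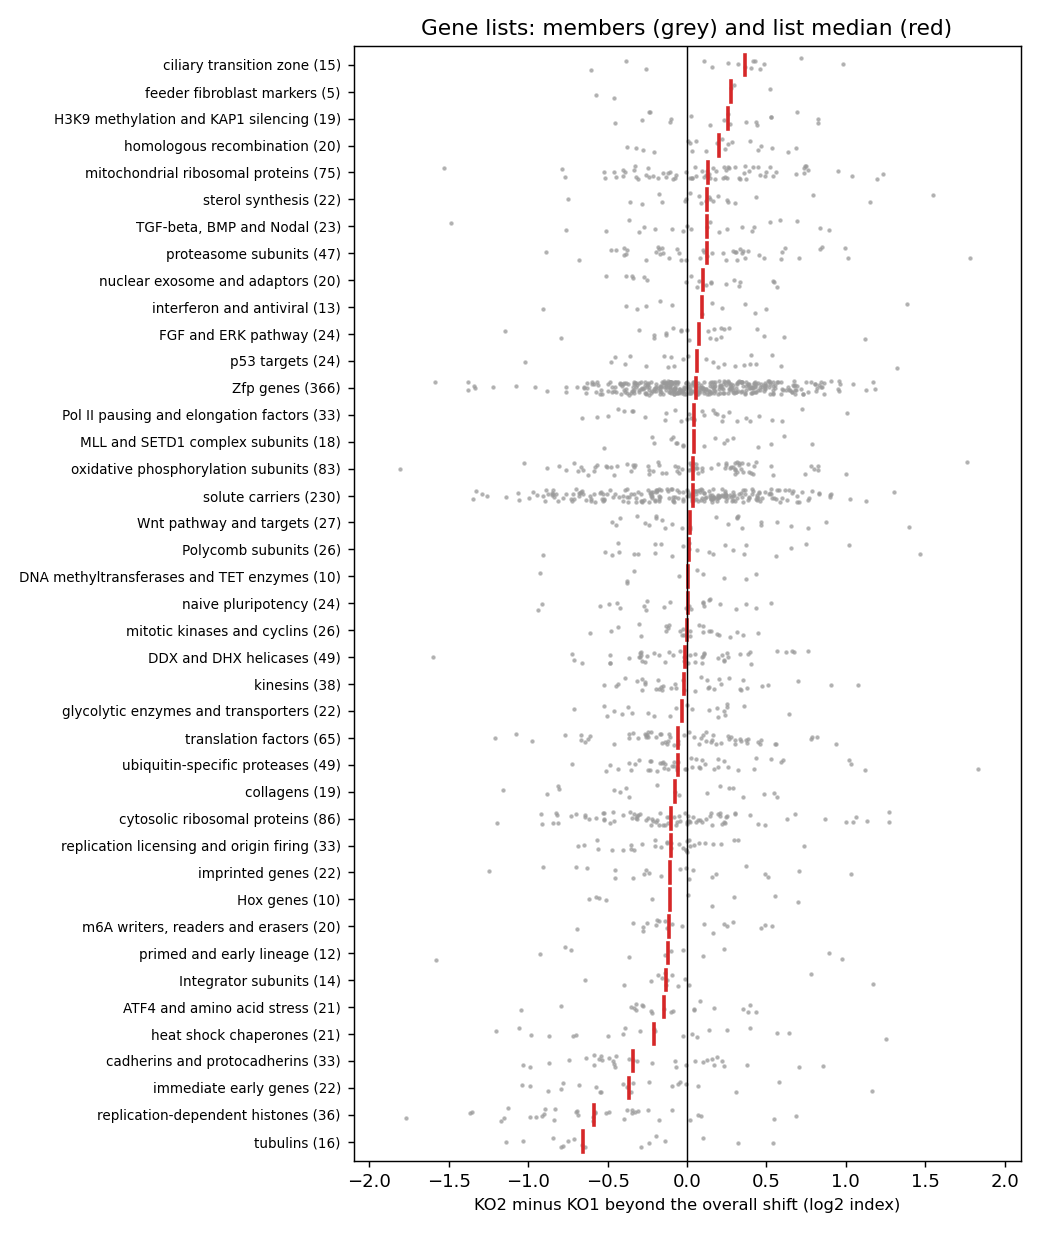
KO2 minus KO1 difference of the log2 escaping index beyond the shift, 1 grey point per gene and a red bar at the median of each list, with the number of measured genes in brackets. Tubulins (-0.65) and replication-dependent histones (-0.59) lie farthest to the left and the ciliary transition zone (0.36) farthest to the right, while single members of most lists lie on both sides of 0.

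Gene structure went little with the difference between the lines. In 5 equal groups by genomic length its median ran from 0.01 in the shortest and 0.05 in the next to -0.06 in the longest. Spearman's rho across genes was -0.064 with length and 0.045 with the mean index, where overlapping and neighbouring genes are not independent. The share lower without overlap was 25.4% in the shortest group and 28.4% in the longest. Among the autosomes and chromosome X, X had the lowest median, and chromosome Y was left out of this ranking. The 425 genes of X were at -0.13, with 146 lower without overlap (34.4%) and 76 higher (17.9%). With any 1 library left out the median of X lay between -0.16 and -0.10. The autosomes ran from -0.06 on chromosome 6 to 0.07 on chromosome 15. Genes that overlap another annotated gene, 6673 in all, had a median of 0.0012, and the others -0.0020.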

How the data were processed

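Per the submitters' processing notes, the tools were CASAVA, Trimmomatic 0.38, HISAT2 2.1.0 and featureCounts, with genome build mm10; their roles and settings, any use of strand and the windows of the index are not given in the sources used. The authors deposited log2 values of an escaping index for 68473 transcripts in 6 libraries. Read depth is unknown, so no counting interval is given. An offset of 0.5 times each library's smallest linear value, inferred from the values, was taken off before ratios were compared; 84 genes then held a ratio of 1 (within 1e-09) in at least 1 library.

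Of the transcripts, 68397 matched GENCODE M21 (76 did not) and 33978 were protein-coding, in 12974 genes, of which 4794 had 1 such transcript. The longest genomic span stood for the gene; by spliced length the choice differed in 1927. Overlap with another annotated gene (6673 genes) was counted on either strand.

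All 6 libraries were fitted with limma 3.58.1 (R 4.3.3), as group means with a variance trend. The KO2 minus KO1 difference, less its median over genes, was divided by its moderated SE (3 residual and 2.68 prior degrees of freedom), and p was adjusted over all genes by Benjamini-Hochberg. The procedure was tested on simulated data. Replicate numbers were not used to pair the samples, since the labels do not say what they stand for. Deviations of same-numbered libraries correlated across genes at 0.0016, -0.0090 and 0.0077, so no shared deviation was seen in the index. Whether same-numbered libraries were prepared together is not known. Tables were handled in Python 3.11.15 with pandas 2.3.3, numpy 2.4.6 and scipy 1.17.1.

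Members and lists were chosen with earlier results of these data known. Named were the 12 genes per direction with the smallest p among those without overlap, the 5 widest gaps per direction, Mettl3, and the 3 smallest p of each list and of 10 families, 165 in all; some genes taken by this rule are not reported here. Further members of the lists and the neighbours of named genes were named after their values were seen. The alternatives were other ways of removing the shift, other choices of transcript, filters on low, tied or overlapping genes, 1 added to the ratio, a replicate block, the 4 knockout libraries alone, no variance trend, and each library left out. Promoter sequences came from RefSeq (GRCm38.p6), matched by Entrez identifier for 8399 of the genes.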

Additional observations from a re-analysis of the deposited data

Results flagged for a closer look

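In 16 of the 28 genes named by p or by gap, both KO1 libraries lay on 1 side of both controls and both KO2 libraries on the other, in the deposited values and against the same 2 controls. The difference between the lines was itself tested with limma and did not pass in any of them (adjusted p = 0.195 for each). KO1 lay below and KO2 above control in Rps28 (difference beyond the shift 1.27), Flot1 (1.45), Rps12 (1.27), Gm20509 (1.25), Bak1 (1.52), Nlrc3 (1.93) and Msl3l2 (2.25). KO1 lay above and KO2 below control in AU015836 (-2.21), Fcgr3 (-1.96), Hist1h4c (-1.77), Hist1h3d (-1.37), Mt3 (-1.81), Loxl2 (-1.93), Ehhadh (-1.58), Zfp951 (-1.34) and Kbtbd8 (-1.32). These genes were chosen for their difference between the lines, so the layout describes them and gives no further evidence. The share of all genes with this layout is not given here, so the count has no background. Once each line's own shift against control was taken off, Flot1 was at 0.08 in KO1 and 1.54 in KO2. Mt3 was at 1.87 in KO1 and 0.07 in KO2, and Zfp951 at 1.56 and 0.23. Flot1, Mt3 and Zfp951 thus did not keep the layout. Loxl2 and Fcgr3 were at -0.02 and -0.03 in KO2. In Ehhadh the KO1 libraries exceeded the higher control by less than 0.1. In Nlrc3 KO2 replicate 1, at 2.1776, was level with control replicate 2, at 2.1775, while control replicate 1 was at 1.37.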

How the results depend on the processing

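No gene was called under any alternative; the smallest adjusted p (limma) ran from 0.125 with no shift removed to 0.439 without KO2 replicate 2. With no shift removed, an unadjusted p under 0.05 was held by 459 genes on the higher side and 2205 on the lower, against 1027 and 1100. Leaving out a library, these counts ran from 674 to 1073 higher and from 627 to 1163 lower. The lowest were those without a knockout library, where the lone sample of a line is assumed to vary like the other groups. The shift itself lay between -0.21 (without KO2 replicate 2) and -0.16 (mean over transcripts). Lists with a median beyond 0.2 numbered 9, but 19 with no shift removed and 15 without overlapping genes, an alternative chosen after seeing the data along with the one on tied ratios.

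With the replicate block, 0 genes were called (smallest adjusted p = 0.254, limma) and 955 were higher and 1017 lower at the unadjusted p. Same-numbered libraries had shown no shared deviation in the index, and the block changed no other call.

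Of the 165 named differences, all that could be fitted kept their direction under every alternative but those named here. By spliced length 160 did; Ell2 (0.18), Slc2a3 (0.38), Psma2 (-0.12), Men1 (0.19) and B9d2 (-0.10) reversed. With the mean over transcripts 160 did; Ell2 (0.017), Men1 (0.050), Cdkn1c (0.029), Phgdh (0.0029) and Idi1 (-0.105) reversed. Leaving out libraries, the Col1a1 difference ran from -1.04 to 0.12, that of Mettl3 from -0.12 to 0.074 and that of Hoxd8 from -0.12 to 1.53. The cause was not tested. Read depth, not known here, limits the precision of low ratios.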

Other observations

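The genes in these paragraphs were chosen after their values were seen. Metallothioneins, which bind zinc and copper, lie side by side on chromosome 8, and all 3 measured had a lower index in KO2 beyond the shift. Mt2 was at 0.35 and 0.42 in KO1 and -0.78 and -0.55 in KO2, a difference of -0.85. Mt1 was at 1.21 and 0.85 in KO1 and -0.06 and 0.53 in KO2, a difference of -0.60. With Mt3 the median of the 3 was -0.85, or -0.33 with 1 added to the ratio.

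Liph and Ehhadh lie near each other on chromosome 16, and the genes within 250 kb of them were read as well. The gene 2510009E07Rik was at -1.29 and Map3k13, a kinase of the JNK pathway, at -0.55. The protease gene Senp2 was at -0.30, Tmem41a at -0.14 and the splicing factor gene Tra2b at -0.01, while Vps8 and Igf2bp2 were at 0.29 and 0.49.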
